A study of Mus musculus with 6 samples.

Results

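The genes described here encode respiratory complex I (NADH:ubiquinone oxidoreductase) and the factors that assemble it. They were taken as the probe sets whose platform annotation gives a single gene symbol beginning with Ndufa, Ndufab, Ndufaf, Ndufb, Ndufc, Ndufs or Ndufv followed by a digit, and each gene was represented by its probe set with the highest mean signal over the 6 arrays. This gave 39 genes of the 12393 genes with a probe set of their own, 34 named as subunits and 5 as assembly factors. Their transcripts were measured in mouse colon epithelium from animals on a standard diet (control) and from animals whose diet held 0.4% ursodeoxycholic acid (UDCA), a water-loving bile acid in clinical use for liver disease. Each array, of an Affymetrix type, held the RNA of 2 animals of the same diet, so that each group had 3 arrays, named here by the animals they hold (1+2, 3+4 and 5+6). No strain, age or genetic alteration was given for either group in the sources used here, and the length of the feeding was not given. The samples are also tagged as IEC-6, the name of a rat cell line, although their source and organism name mouse tissue, and they are taken as tissue here. Replicates were pools of different animals, and the number of arrays limits the precision.

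Complex I is the entry point of the mitochondrial respiratory chain. It takes electrons from NADH, passes them through a flavin and a chain of iron-sulfur clusters in the arm that reaches into the matrix, and delivers them to ubiquinone, while the arm in the inner membrane pumps protons. Its catalytic core is shared with bacteria and is encoded partly by mitochondrial DNA and partly by the nucleus, and a large set of nuclear accessory subunits surrounds it. Assembly factors join the modules and modify subunits but are not part of the finished enzyme. Colonocytes near the lumen oxidise butyrate and depend heavily on mitochondrial respiration. The core subunits encoded by mitochondrial DNA carry other names and were not among the 39 genes.

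The promoters of 5 members, picked after their values were seen, are shown so that their sequence can be read beside the values that follow. Ndufaf4 had the largest log2 fold change and Ndufa1 the lowest, Ndufs3 had the smallest p, and Ndufaf1 and Ndufs7 are a further assembly factor and core subunit with a match to a motif of a known regulator of respiratory genes. The sequences are RefSeq promoters of build GRCm38.p6, from 250 bases before to 50 bases after the start site, written in the direction of transcription, with capitals marking the motifs found in them.

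Ndufaf4, chr4:24897833-24898132, forward strand: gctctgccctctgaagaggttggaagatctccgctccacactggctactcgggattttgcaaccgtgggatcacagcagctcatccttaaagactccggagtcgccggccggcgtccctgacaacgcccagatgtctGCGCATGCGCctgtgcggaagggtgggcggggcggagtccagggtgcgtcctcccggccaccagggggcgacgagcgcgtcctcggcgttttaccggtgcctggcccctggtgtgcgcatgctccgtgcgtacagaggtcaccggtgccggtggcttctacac

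Ndufs3, chr2:90904672-90904971, reverse strand: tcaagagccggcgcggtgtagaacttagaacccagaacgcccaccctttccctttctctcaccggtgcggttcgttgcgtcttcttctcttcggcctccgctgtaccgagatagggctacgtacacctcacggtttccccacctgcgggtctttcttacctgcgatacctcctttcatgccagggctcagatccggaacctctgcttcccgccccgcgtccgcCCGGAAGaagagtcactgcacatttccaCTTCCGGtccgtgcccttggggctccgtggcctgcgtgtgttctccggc

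Ndufaf1, chr2:119662785-119663084, reverse strand: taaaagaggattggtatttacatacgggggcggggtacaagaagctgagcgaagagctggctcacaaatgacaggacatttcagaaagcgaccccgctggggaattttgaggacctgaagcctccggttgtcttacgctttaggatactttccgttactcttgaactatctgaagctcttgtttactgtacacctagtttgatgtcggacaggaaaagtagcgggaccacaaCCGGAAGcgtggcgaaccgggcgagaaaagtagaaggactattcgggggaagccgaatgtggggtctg

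Ndufs7, chr10:80249199-80249498, forward strand: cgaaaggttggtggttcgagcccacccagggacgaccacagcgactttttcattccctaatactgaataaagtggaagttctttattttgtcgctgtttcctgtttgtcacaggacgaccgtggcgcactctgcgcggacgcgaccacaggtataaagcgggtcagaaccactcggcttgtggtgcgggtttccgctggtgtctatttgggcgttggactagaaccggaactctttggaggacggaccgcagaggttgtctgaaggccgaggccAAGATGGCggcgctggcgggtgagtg

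Ndufa1, chrX:37191189-37191488, reverse strand: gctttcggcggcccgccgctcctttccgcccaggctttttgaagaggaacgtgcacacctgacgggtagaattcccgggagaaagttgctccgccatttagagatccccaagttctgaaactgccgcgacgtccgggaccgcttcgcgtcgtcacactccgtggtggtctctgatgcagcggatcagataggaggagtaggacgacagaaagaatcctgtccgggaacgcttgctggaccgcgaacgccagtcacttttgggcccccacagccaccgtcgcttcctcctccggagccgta

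Of the 39 genes, 36 had an entry in the promoter table, with 38 promoters among the 32851 of all genes. The motifs were searched on both strands, and none of the matches in the promoters shown overlapped another. The site of NRF1 (nuclear respiratory factor 1), GCGCA followed directly by its reverse complement TGCGC, lay in 2 of the 38 promoters (5.26%) and in 0.971% of all promoters. It began at base -113 of Ndufaf4 and at base 17 of Ndufaf5, counting the start site as base 1 and the base before it as -1. CCGGAAG, bound by ETS factors such as GABPA, lay in 5 promoters (13.2%, against 8.86% of all), and Ndufs3 held it on each strand, from base -27 and from base 2. The match in Ndufaf1 began at base -18. AAGATGGC, bound by YY1, lay in 6 promoters (15.8%, against 2.75% of all), those of Ndufa3, Ndufa9, Ndufb8, Ndufc1, Ndufs4 and Ndufs7. Each of these matches read in the direction of transcription and began at a base from 23 to 39. AAGGTCA, bound by oestrogen-related receptors, lay in 2 promoters (5.26%, against 4.72% of all), those of Ndufb2 and Ndufs5. The promoter of Ndufa1 held none of these motifs. The 6 genes with the YY1 motif had log2 fold changes from -0.03 in Ndufa3 to 0.26 in Ndufs4, and the 2 genes with the NRF1 motif had 0.77 in Ndufaf4 and 0.07 in Ndufaf5. These matches describe letters in a window and were not tested for binding.

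No complex I gene passed the test between the diets. After quantile normalization, limma called 0 of the 39 genes at an adjusted p below 0.05, where it called 1 gene of the 6770 tested (0.0148%), the apolipoprotein gene Apoc2. Adjusted p-values of the 39 genes ranged from 0.288 to 0.973. At an unadjusted p below 0.05, 7 of the 39 genes were higher under UDCA (17.9%, against 7.28% of all genes) and 1 was lower (2.56%, against 7.1%). The number that were higher was 3 without the control 1+2 array and 10 without the control 5+6 array. It was between 4 and 8 without any other array, and 20 when arrays were centred on their medians. Over all genes, 974 of 6770 had such a p in either direction. That number was 481 of 6765 without control 1+2 and 1292 of 6770 without control 5+6. It was 573 to 1210 without any other array and 1186 of 6768 with arrays centred on their medians. In either direction 8 of the 39 genes had such a p, and 20 with arrays centred on their medians. With that centring, 63.5% of all genes had a positive log2 fold change, as had 75.9% of those with a mean signal above 1000. Log2 fold changes, given throughout as UDCA minus control on the log2(signal + 16) scale, were positive for 29 of the 39 genes (74.4%, against 50.2% of all genes). Their median was 0.09, beside 0.0009 for all genes, and they ran from -0.23 in Ndufa1 to 0.77 in Ndufaf4.

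All 3 UDCA pools lay above all 3 control pools for 13 of the 39 genes (33.3%, against 11.1% of all genes), and all 3 lay below for 0 of them (8.64% of all genes). The 13 genes were Ndufa5, Ndufa12, Ndufab1, Ndufaf1, Ndufaf4, Ndufb3, Ndufb7, Ndufb8, Ndufb10, Ndufc1, Ndufs3, Ndufs4 and Ndufs7. Some of the gaps were very narrow. The lowest UDCA pool and the highest control pool had log2 levels of 11.721 and 11.719 in Ndufc1 and 8.430 and 8.418 in Ndufaf4. Wider gaps were those of Ndufs3, at 10.781 and 10.634, and Ndufs4, at 9.906 and 9.775. On the deposited scale, without normalization, the groups were apart for only Ndufb7 and Ndufs4 (5.13%, against 3.61% of all genes). After quantile normalization, the 95% confidence interval of 34 of the 39 genes lay within 0.5 log2 units of 0 on either side. The median standard error was 0.081, against 0.126 over all genes. The 39 genes were brighter than most, with a mean signal above 1000 for 32 of them and for 1249 of the 6770. The intervals leave out the choice of scaling, which moved the log2 fold changes by 0.09 to 0.15. All 39 genes passed the filter on low values.

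**Figure D1:**
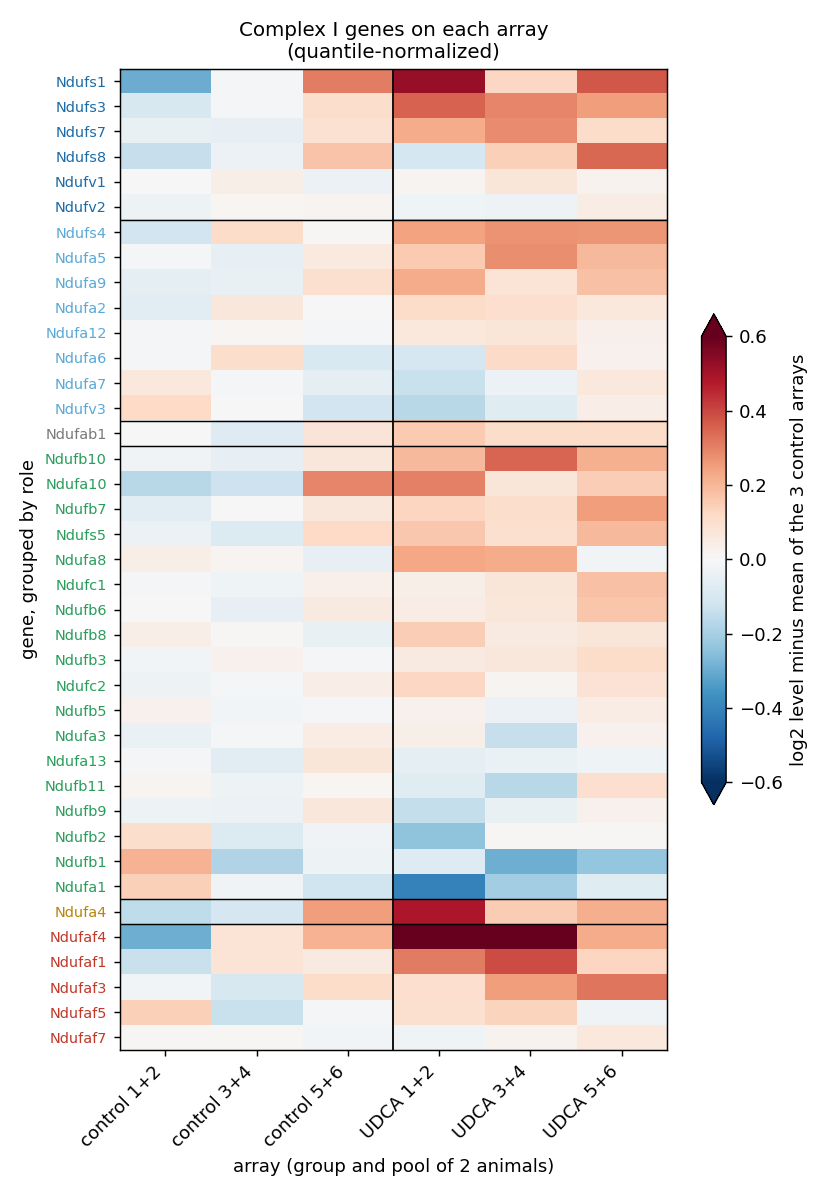
Quantile-normalized log2 level of the 39 complex I genes (rows, grouped by role, colour of the name giving the role) on the 6 arrays (columns), each minus the mean of the 3 control arrays; red is above and blue below that mean. The deepest red of the UDCA arrays lies among the core subunits, Ndufa4 and the assembly factors, and Ndufa1 and Ndufb1 are blue on all 3 UDCA arrays.

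The nuclear core subunits hold the redox centres and the ubiquinone site. Log2 fold changes were positive for 5 of the 6 measured core subunits, with a median of 0.17, and 0 of the 6 passed the test. Ndufs3, a core subunit of the module that reaches the membrane, had the smallest p of the 39 genes. Its signals, given for pools 1+2, 3+4 and 5+6 in this order here and below, were 1122, 1429 and 1724 in the control pools and 1939.6, 2110.3 and 1636 in the UDCA pools. The lowest UDCA pool lay below the highest control pool in the deposited signal, and above it after normalization. UDCA minus control was 0.30 on the log2 scale (SE 0.085, limma adjusted p = 0.288), with a 95% interval from 0.10 to 0.49. This is the gene whose promoter carries the ETS motif on each strand, and a link between motif and level was not tested.

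Ndufs1, the large subunit that carries several of the iron-sulfur clusters, had signals of 653, 951 and 1296 in the control pools and 1429, 1255 and 1185 in the UDCA pools. Control pool 5+6 lay among the UDCA values and control pool 1+2 was the dimmest of the 6. On the normalized log2 scale its control SD of 0.30 was the widest among the genes named as subunits. The log2 fold change was 0.34 (SE 0.16, limma adjusted p = 0.391), and it was 0.19 without control pool 1+2 and 0.49 without control pool 5+6. Ndufs7, whose cluster hands electrons to ubiquinone, had signals of 1277, 1528 and 1874 in the control pools and 1944, 2315 and 1628 in the UDCA pools. After normalization its groups were apart, at a log2 difference of 0.21 (SE 0.085, limma adjusted p = 0.356), and its second probe set gave 0.17.

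Ndufs8, which carries the clusters next to that of Ndufs7 in the chain, had signals of 2230.2, 2844 and 3552 in the control pools and 2872, 3918 and 3591 in the UDCA pools. The groups overlapped, at a difference of 0.13 (SE 0.12, limma adjusted p = 0.657). Its 6 probe sets gave values from -0.06, on one with a mean signal of 87.0, to 0.25. The remaining core subunits, which form the site where NADH is oxidised, had small differences with narrow intervals. Ndufv1, which binds NADH and the flavin, had signals of 1765, 2176 and 2221 in the control pools and 2219, 2657 and 2046 in the UDCA pools. Its log2 fold change was 0.04, with an interval from -0.12 to 0.19. Ndufv2, its iron-sulfur partner, had signals of 2857, 3512 and 3776 in the control pools and 3631, 4052 and 3407 in the UDCA pools. Its log2 fold change was -0.01, with an interval from -0.14 to 0.13, and its other probe sets gave 0.10.

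**Figure D2:**
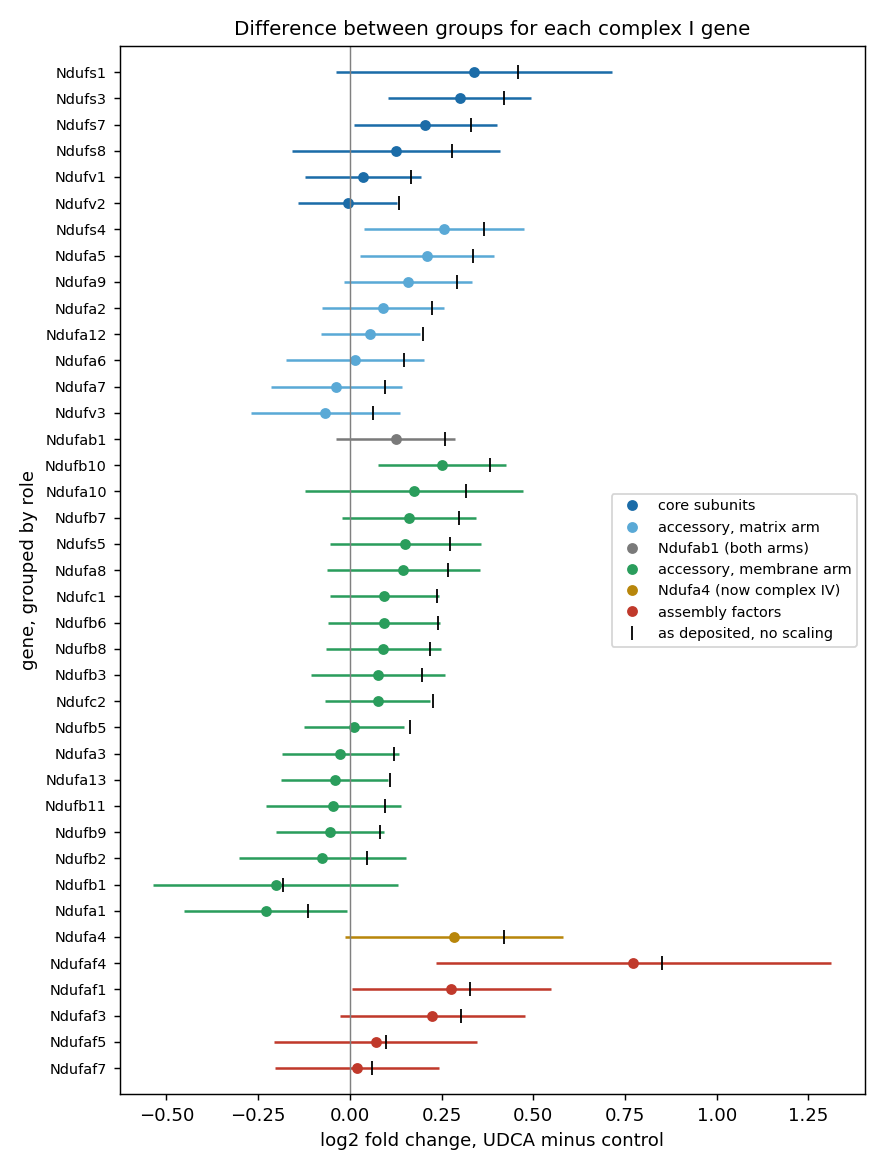
Log2 fold change (x axis, UDCA minus control) of each of the 39 complex I genes (y axis, grouped by role) after quantile normalization, with its 95% confidence interval; black ticks mark the value on the deposited scale. Ndufaf4 lies farthest to the right at 0.77, the intervals of 7 genes lie above 0 and that of Ndufa1 lies below 0.

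The accessory subunits of the matrix arm surround the core without redox centres of their own. Of the 8 measured, 6 had positive log2 fold changes, with a median of 0.07, and 0 passed the test. Ndufs4, which stabilises the NADH-oxidising module and is mutated in human Leigh syndrome, had signals of 607, 851 and 872.5 in the control pools and 954, 1144 and 898 in the UDCA pools. All UDCA pools lay above all control pools on both scales, and the log2 fold change was 0.26 (SE 0.095, limma adjusted p = 0.318). Its other probe sets gave 0.18 and 0.11, and their deposited signals overlapped between the diets. Ndufa5, a helical subunit of the ubiquinone module, had signals of 1168, 1375.5 and 1632.5 in the control pools and 1658, 2071 and 1546 in the UDCA pools. Its groups were apart after normalization, at 0.21 (SE 0.080, limma adjusted p = 0.324), and its second probe set gave 0.11 (unadjusted p = 0.217).

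The other 6 genes of this arm had log2 fold changes from -0.07 to 0.16. Ndufa9, a member of the short-chain dehydrogenase family that binds NADPH, was at 0.16, Ndufa2, which has a thioredoxin-like fold, at 0.09, Ndufa12 at 0.06 and Ndufa6, an LYR-motif protein that binds the acyl carrier protein, at 0.01. Ndufa7 was at -0.04. Ndufv3, a small subunit next to Ndufv1, had signals of 2280.2, 2499 and 2515 in the control pools and 2337, 2845 and 2467 in the UDCA pools. Its groups overlapped, with a log2 fold change of -0.07 that was 0.06 on the deposited scale. Ndufab1, the mitochondrial acyl carrier protein, sits in both arms and also serves fatty acid synthesis. It had signals of 1987, 2238 and 2700.2 in the control pools and 2775, 3043 and 2454.5 in the UDCA pools, and differed by 0.12 (SE 0.071, limma adjusted p = 0.447), and its second probe set above the filter gave 0.22.

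Accessory subunits of the membrane arm formed the largest group. Log2 fold changes were positive for 11 of 18, with a median of 0.08, and 0 passed the test. Ndufb10, a subunit of the distal part of the arm, had signals of 1745, 2058 and 2428 in the control pools and 2549.7, 3262 and 2337 in the UDCA pools. After normalization its groups were apart, at 0.25 (SE 0.077, limma adjusted p = 0.302). Ndufa10, which has a nucleoside kinase fold, had signals of 1322, 1638 and 2394 in the control pools and 2324, 2271 and 1904 in the UDCA pools. As in Ndufs1, control pool 1+2 was low and control pool 5+6 lay at the UDCA level, and the log2 fold change was 0.17 (SE 0.13, limma adjusted p = 0.556).

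The lowest log2 fold changes were those of Ndufa1 and Ndufb1, small subunits of the membrane arm. Ndufa1, an X-linked protein with a single membrane span that is needed for assembly, had signals of 5793, 5911 and 5780.2 in the control pools and 4727, 5964 and 5532 in the UDCA pools. The control pools were close together and UDCA pool 3+4 lay above them. The log2 fold change was -0.23 (SE 0.097, unadjusted p = 0.0447, limma adjusted p = 0.359), and -0.11 on the deposited scale. Ndufb1, another small subunit, had signals of 105, 86.6 and 108 in the control pools and 91.8, 91.2 and 75.2 in the UDCA pools. The groups overlapped, with a log2 fold change of -0.20 and a wide interval, from -0.54 to 0.13.

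Ndufb9, an LYR-motif protein that binds the acyl carrier protein in this arm, had signals of 3955.5, 4515 and 5076 in the control pools and 4439, 5307 and 4569.8 in the UDCA pools. Its log2 fold change was -0.06. Ndufb2 had signals of 1435, 1501 and 1748 in the control pools and 1401, 1944 and 1525.5 in the UDCA pools. Its probe sets differed in sign, at -0.07 and 0.05. Ndufa13, also known as GRIM-19, sits near the junction of the arms and had signals of 2710.2, 3079.9 and 3619 in the control pools and 3291, 3793 and 3034 in the UDCA pools. The log2 fold change of -0.04 turned to 0.11 on the deposited scale, as did those of Ndufa3 (-0.03 to 0.12), Ndufa7 (-0.04 to 0.10), Ndufb2 (-0.07 to 0.05), Ndufb9 (-0.06 to 0.08) and Ndufb11 (-0.04 to 0.09), and that of the core subunit Ndufv2 (-0.01 to 0.13).

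Most other membrane-arm genes lay slightly above 0. Ndufb7, Ndufs5 and Ndufa8, which face the intermembrane space and carry cysteine pairs, were at 0.16, 0.15 and 0.15, and Ndufb7 was the only one of them whose groups were apart, with 1431, 1807 and 2044 in the control pools against 2084, 2312 and 2048 in the UDCA pools. A second probe set of Ndufb7 gave 0.0068, with overlapping signals of 1097, 1175 and 1379 in the control pools and 1264, 1534 and 1222 in the UDCA pools. Ndufb3, Ndufb6, Ndufb8, Ndufc1 and Ndufc2 were at 0.08 to 0.09. Ndufb5 was at 0.01 and, with Ndufs8 and Ndufc2, was among the 3 genes that moved most between normalizations, from 0.01 to 0.16 on the deposited scale. Its signals were 2799.8, 3207 and 3516 in the control pools and 3573, 3852 and 3226 in the UDCA pools. For Ndufc2 they were 2640.1, 3171 and 3546 in the control pools and 3745, 3921 and 3239.8 in the UDCA pools. In these 2 genes, control pool 1+2 was the lowest of the 6 and UDCA pool 3+4 the highest.

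Ndufa4 keeps its complex I name but is now assigned to complex IV, cytochrome c oxidase. It had signals of 1341, 1687 and 2324 in the control pools and 2655, 2385 and 2008 in the UDCA pools. Control pool 5+6 lay above UDCA pool 5+6, and the log2 fold change was 0.28 (SE 0.13, limma adjusted p = 0.382). Ndufs1, Ndufa10 and Ndufa4 had the 3 widest control SDs on the normalized log2 scale among the genes named as subunits, all with pool 1+2 low and pool 5+6 high.

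**Figure D3:**
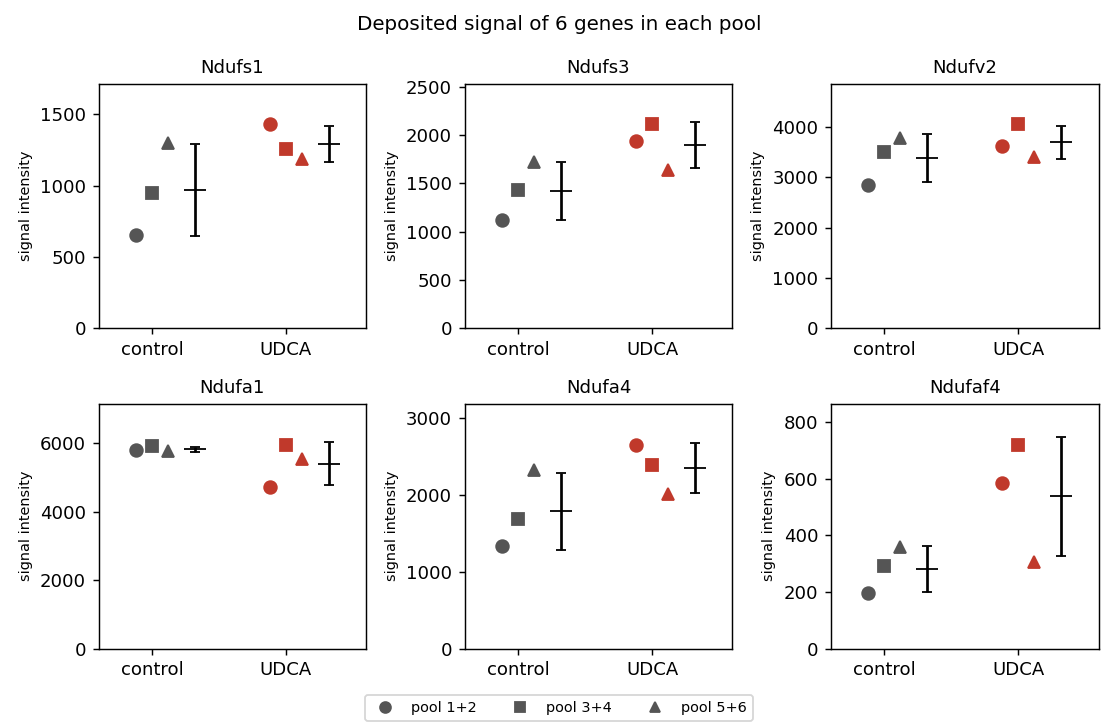
Deposited signal intensity (y axis, linear, from 0) of 6 complex I genes in the 3 control and 3 UDCA pools, with marker shape giving the pool and the bar beside each group giving mean and SD. Ndufs1 and Ndufa4 share the low control pool 1+2, Ndufv2 has overlapping groups, Ndufa1 has close control pools, and Ndufaf4 has UDCA pools 1+2 and 3+4 above the rest at 587 and 722.

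The assembly factors had a median log2 fold change of 0.23, against 0.09 over the genes named as subunits, and all 5 were positive. They were dimmer than nearly all of the subunits, with mean signals of 145 to 410. Their median standard error was 0.118, against 0.080 for the subunits, and no background of equally dim genes was taken. None passed the test, and the difference between the 2 classes was not tested, because the classes were chosen with results of these data known. Ndufaf4, which works with Ndufaf3 early in the assembly of the ubiquinone module, had the largest difference of the 39 genes. Its signals were 195, 291 and 359.6 in the control pools and 587, 722 and 306 in the UDCA pools. UDCA pools 1+2 and 3+4 were well above every control pool, and UDCA pool 5+6 lay between control pools 3+4 and 5+6 in the deposited signal. After normalization UDCA pool 5+6 lay barely above control pool 5+6, at log2 levels of 8.430 and 8.418. The log2 fold change was 0.77 (SE 0.24, limma adjusted p = 0.302), with an interval from 0.24 to 1.31. A second probe set gave 0.59, with 197, 225 and 305 in the control pools and 392.4, 553 and 262 in the UDCA pools. The difference was 1.05 without UDCA pool 5+6 (adjusted p = 0.0834) and 0.85 on the deposited scale (adjusted p = 0.0739), and 0.62 without UDCA pool 3+4. Over all alternatives its adjusted p ran from 0.0739 to 0.699. The NRF1 motif shown above lies in the promoter of this gene and in that of Ndufaf5, at a log2 fold change of 0.07. A link between motif and level was not tested.

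Ndufaf1, a member of the assembly complex for the membrane arm, had signals of 169, 225 and 247 in the control pools and 269, 335.5 and 216 in the UDCA pools. After normalization its groups were apart, at 0.28 (SE 0.12, limma adjusted p = 0.359). Ndufaf3, the partner of Ndufaf4, had signals of 271, 294 and 386 in the control pools and 346, 452 and 379.5 in the UDCA pools. Its groups overlapped, at a log2 difference of 0.23 (SE 0.11, limma adjusted p = 0.396). The protein-modifying factors were nearly level. Ndufaf5, which hydroxylates an arginine of Ndufs7, had signals of 137, 127 and 154 in the control pools and 147, 181 and 126 in the UDCA pools, with a log2 fold change of 0.07. Ndufaf7, a protein arginine methyltransferase, had signals of 173, 196 and 217 in the control pools and 191, 232 and 190.1 in the UDCA pools. Its log2 fold change was 0.02, with an interval from -0.20 to 0.24.

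Assembly factors without the Nduf name had 7 positive values among the 9 above the filter, with a median of 0.13, and 0 were called. The 3 with the smallest p were Ecsit at 0.35 (adjusted p = 0.314), Acad9 at -0.24 (adjusted p = 0.464) and Timmdc1 at 0.20 (adjusted p = 0.529). All 3 belong with Ndufaf1 to the assembly of the membrane arm. Ndufaf1 and Ecsit had groups apart with UDCA higher (11.1% of all genes), and Acad9 had groups apart with UDCA lower (8.64% of all genes).

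Averages by role gave the level of each group of genes in each pool. After quantile normalization and relative to the control mean, the mean log2 level of the 34 genes named as subunits was -0.02, -0.02 and 0.04 in the control pools and 0.07, 0.06 and 0.11 in the UDCA pools. The UDCA pools averaged 0.081 ± 0.022 (SD, n = 3), with a control SD of 0.037, and no UDCA pool overlapped a control pool. On the deposited scale the groups overlapped, at -0.22, 0.02 and 0.20 in the control pools and 0.19, 0.36 and 0.08 in the UDCA pools, where control pool 5+6 lay above UDCA pools 1+2 and 5+6. After normalization, core subunits averaged 0.167 ± 0.022 in the UDCA pools, with a control SD of 0.11, and accessory subunits of the membrane arm averaged 0.036 ± 0.031, with a control SD of 0.037. Among the core subunits, the control values of -0.10, -0.01 and 0.11 spread more widely than the UDCA values of 0.16, 0.15 and 0.19. For the membrane arm the groups overlapped, at 0.01, -0.04 and 0.03 against 0.03, 0.01 and 0.07.

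The assembly factors averaged 0.30, 0.38 and 0.14 in the UDCA pools against -0.06, -0.01 and 0.07 in the control pools. Their mean exceeded that of the subunits by 0.23 in UDCA pool 1+2, by 0.31 in UDCA pool 3+4 and by 0.04 in UDCA pool 5+6. Without Ndufaf4 the remaining 4 factors averaged 0.12, 0.20 and 0.12 in the UDCA pools and 0.00, -0.03 and 0.03 in the control pools. The UDCA mean then was 0.148 ± 0.045, against 0.273 ± 0.119 with Ndufaf4.

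**Figure D4:**
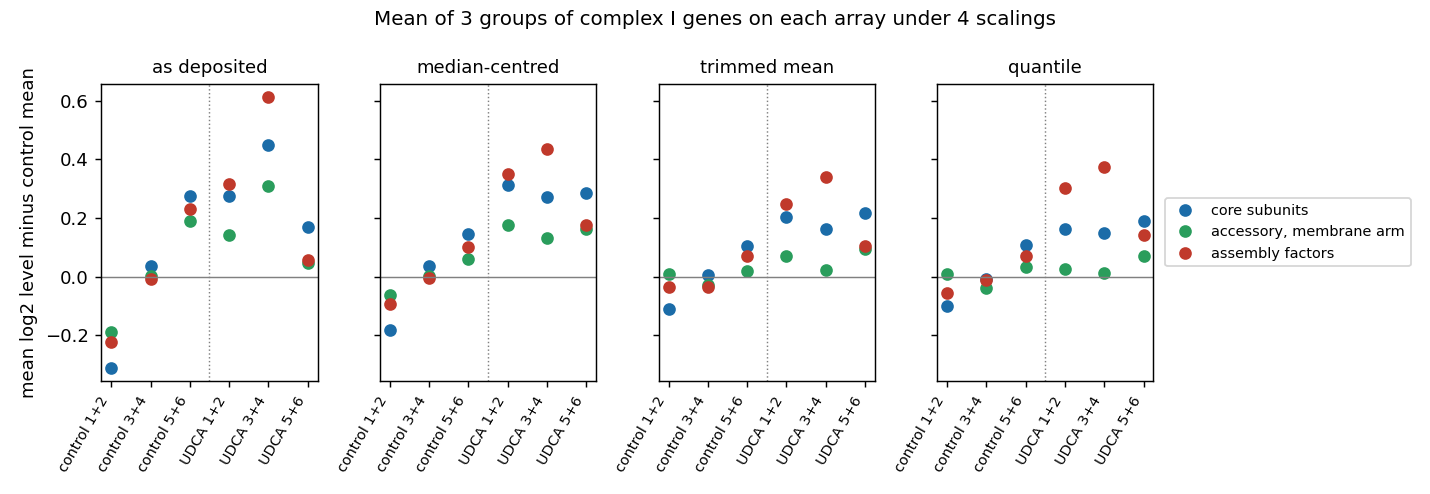
Mean log2 level of the core subunits, the accessory subunits of the membrane arm and the assembly factors on each array, minus the control mean (y axis), on the deposited scale and after 3 scalings of the arrays. On the deposited scale control pool 5+6 lies above UDCA pool 5+6 in all 3 groups of genes; after quantile normalization the core subunits are at 0.16, 0.15 and 0.19 in the UDCA pools and the assembly factors at 0.30, 0.38 and 0.14.

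How far the genes stood from 0 depended on how the arrays were brought to a common level. Median signals over all probe sets were 67.4 to 83.85 on the control arrays and 68.1 to 87.2 on the UDCA arrays. On the deposited scale 37 of the 39 genes had a positive log2 fold change (94.9%, against 64.7% of all genes). Control pool 1+2 was the lowest array for 31 of the 34 genes named as subunits and UDCA pool 3+4 the highest for 28, and over all probe sets these arrays had the lowest and the highest median. The median over the subunits was then 0.23, with 0.08 over all genes and 0.12 over the 1249 genes with a mean signal above 1000. After quantile normalization it was 0.09, with 0.0009 over all genes and -0.0003 over those bright genes. Of the 39 genes, 32 had a mean signal above 1000, and 23 of these were positive with a median of 0.09, where 49.96% of all such bright genes were positive. Across the 34 genes named as subunits, the log2 fold change had a Pearson correlation of -0.09 and a Spearman correlation of -0.51 with the mean log2 level. Ndufb1, at -0.20, was by far the dimmest of these genes, with a mean signal of 92.9, and Ndufs4 came next with 888. The correlations were not computed without Ndufb1, and they are descriptions over genes that share the same arrays.

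**Figure D5:**
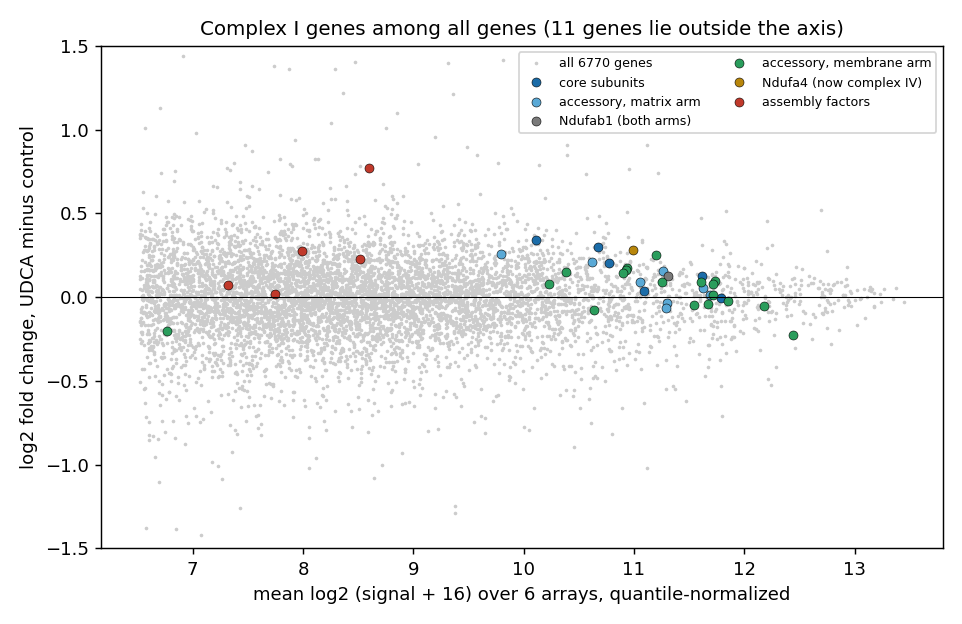
Log2 fold change (y axis, UDCA minus control) against mean log2 level (x axis) of the 6770 genes tested (grey) and of the 39 complex I genes (colours by role), after quantile normalization. Most complex I genes lie among bright genes within 0.34 of 0, and Ndufaf4 stands above the others at 0.77.

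Several probe sets above the filter were present for 19 of the 39 genes. In 16 of these all probe sets had the same sign, and the exceptions were Ndufb2, Ndufs8 and Ndufv2, whose values are given above. The largest gap between probe sets of a gene was 0.31, in Ndufs8. Of the chosen probe sets, 7 have names that end in _x_at or _s_at, which marks probes that may also bind other transcripts. Another 8 probe sets name a complex I gene together with a second gene, and the 9 genes named by such probe sets alone were not analysed here.

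The neighbouring complexes of the chain showed the same absence of calls, with 0 genes called in any of them. Complex III, which takes electrons from ubiquinol, had positive values for all 9 of its measured subunits, with a median of 0.12. The 3 with the smallest p were Uqcrh at 0.33 (adjusted p = 0.284), Cyc1 at 0.18 (adjusted p = 0.318) and Uqcrfs1 at 0.20 (adjusted p = 0.355). These 3, Uqcrc1 and Uqcr11 had groups apart with UDCA higher, as had 11.1% of all genes. Complex II, which feeds electrons from succinate, had 4 of 4 positive with a median of 0.14, with Sdhc at 0.19, Sdhb at 0.13 and Sdhd at 0.15. Complex IV had 6 of 9 positive with a median of 0.05, with Cox5a at 0.09, Cox7a2 at 0.07 and Cox6a1 at -0.06. ATP synthase, complex V, had 12 of 15 positive with a median of 0.05, with Atp5g1 at 0.17, Atp5pb at 0.11 and Atp5a1 at 0.11. Mitochondrial enzymes that make the NADH used by complex I had 9 of 10 positive with a median of 0.13, with Mdh2 at 0.11, Dlat at 0.25 and Dlst at 0.21. Outside complex III, groups were apart with UDCA higher for Sdhb, Cox5b, Atp5a1, Atp5k, Mdh2 and Idh3b. They were apart with UDCA lower for Cox6a1, as for 8.64% of all genes. At 0.09, the median of the complex I subunits lay between those of complexes III and IV, and differences between the complexes were not tested.

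Markers of other cells were measured beside these values. Of the smooth muscle, lymphocyte, myeloid and fibroblast markers, 0 passed the filter on any list, and the summed signal of a list reached at most 186 on any array. Mean signals lay under 20 for 3 of 5 smooth muscle, 5 of 5 lymphocyte, 2 of 5 myeloid and 4 of 5 fibroblast markers. Surface colonocyte markers, which match the labelled tissue, had a median log2 fold change of -0.01, with 3 of 6 positive and summed signals of 24488 to 29351 in the control pools and 20328 to 36632 in the UDCA pools. Their values ran in opposite directions, with Car4 at -0.49 (adjusted p = 0.391), Krt20 at 0.24 (adjusted p = 0.516) and Slc26a3 at -0.22 (adjusted p = 0.705). All 4 markers of crypt base and cycling cells were negative with a median of -0.46, among them Mki67 at -0.56 (limma adjusted p = 0.302), Lgr5 at -0.44 (adjusted p = 0.314) and Top2a at -0.49 (adjusted p = 0.396). Mki67 and Lgr5 had groups apart with UDCA lower, as had 8.64% of all genes, and the groups of Top2a and Cdk1 overlapped. The summed signal of the 4 markers was 2980.4 to 4409.5 in the control pools and 2640.3 to 3191 in the UDCA pools. Their part in the complex I values was not tested. Goblet cell markers had 1 of 4 positive with a median of -0.08, with Tff3 at -0.25 (adjusted p = 0.324), Agr2 at 0.07 and Fcgbp at -0.08. Of these 4, only Tff3 had groups apart, with UDCA lower. In pooled tissue RNA, fewer cells of a type and less RNA per cell cannot be told apart. The ratio of 3' to 5' signals was 1.15 to 1.25 for the actin control probe sets and 0.70 to 0.79 for those of GAPDH.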

How the data were processed

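The authors deposited a linear signal intensity for each probe set, made with GCOS per the submitters' processing notes, with a version and scaling not given in the sources used here. The deposited table of the authors' fold values carries no probe set identifiers and was not used. The array medians differed, so log2(intensity + 16) was quantile-normalized over 22626 probe sets, without the 64 Affymetrix controls. The brighter 50% by mean log2 level (11313 probe sets), beginning at a signal of about 75.7, were tested with limma 3.58.1 in R 4.3.3 (two-sided, lmFit and eBayes with trend) and adjusted by Benjamini-Hochberg over all of them. The added 16 makes folds of dim genes too small. With 3 arrays a group, the smallest p of an exact permutation is 0.1. The fit was tested on simulated data with planted changes larger than that of any complex I gene. It does not show how often changes of their size would be called.

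The members and lists were chosen with earlier results of these data known. Signals on every array are given for core subunits, Ndufaf factors, Ndufa4, the 6 genes with the smallest p in each direction, the 3 that moved most between normalizations and genes with probe sets of opposite sign; Ndufa10, Ndufab1 and Ndufb7 were added after their values were seen. Of other lists, the 3 genes with the smallest p are named. Further genes of complexes II to V and of the NADH-making enzymes were added because their groups were apart. Nrf1, Yy1 and Esrra were added for their motifs. Deviations of pools with the same number correlated at -0.10, 0.16 and 0.05, so the numbers were not taken as pairs. Alternatives were other scalings, pseudocounts, filters, moderation, array weights, a replicate block, each array left out and other choices of probe set.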

Additional observations from a re-analysis of the deposited data

How the results depend on the processing

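Over 20 alternatives, 0 complex I genes passed the limma test in any of them, with an unadjusted p below 0.05 for 3 to 20 genes and a lowest adjusted p of 0.0739. The sign of the log2 fold change never turned in 28 of the 39 genes. Genes called among all genes numbered 53 on the deposited scale, 0 without a filter (1370 at an unadjusted p below 0.05), 0 in the upper 25% by mean (522), and 0 to 23 with an array left out, 23 of them without control pool 5+6, 5 without UDCA pool 5+6 and 0 without any other (481 to 688 unadjusted). With the pool number as a replicate block, 0 of all genes were called (937 unadjusted) and the median over the subunits stayed at 0.09. The median over the subunits was 0.225 on the deposited scale and 0.217 with arrays centred on the median. Over all genes it was 0.080 and 0.072, and over genes with a mean signal above 1000 it was 0.123 and 0.115. The median over the assembly factors was 0.302 and 0.294, in the same order. In the upper 25%, where only Ndufaf3 and Ndufaf4 of the factors were tested, it was 0.499. Signs turned as follows, and beyond the construction of each alternative the cause was not tested. On the deposited scale Ndufa13 was at 0.108, Ndufa3 at 0.121, Ndufa7 at 0.0962, Ndufb11 at 0.0945, Ndufb2 at 0.0469, Ndufb9 at 0.0824, Ndufv2 at 0.134 and Ndufv3 at 0.0645. With arrays centred on the median they were at 0.100, 0.113, 0.0881, 0.0863, 0.0388, 0.0742, 0.126 and 0.0563, in the same order. At a common trimmed mean Ndufa13 was at 0.0047, Ndufa3 at 0.018, Ndufaf7 at -0.035 and Ndufv2 at 0.030. With array weights Ndufa6 was at -0.018, and over the mean of its probe sets Ndufv2 was at 0.066. With an array left out, values ran from -0.029 to 0.0080 for Ndufv2, from -0.038 to 0.071 for Ndufa6, from -0.087 to 0.013 for Ndufa7, from -0.117 to 0.0077 for Ndufb2, from -0.056 to 0.031 for Ndufa3, from -0.118 to 0.015 for Ndufb11, from -0.0029 to 0.042 for Ndufaf7 and from -0.0053 to 0.035 for Ndufb5. Cyclic loess, chosen after seeing the data, turned no sign. Probe sets without a suffix letter existed for 28 of the 39 genes.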

Other observations

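Regulators of mitochondrial gene expression, some of which bind the motifs searched in the promoters, were themselves measured. Of 14 such genes above the filter, 7 were positive (median -0.02), and limma called 0, with none at an unadjusted p below 0.05. Gabpa, an ETS factor subunit, was at -0.23 (limma adjusted p = 0.394), with all UDCA pools below all control pools, as for 8.64% of all genes. For the other motifs searched, Nrf1 was at 0.18, Yy1 at -0.04 and the oestrogen-related receptor gene Esrra at 0.05, each with overlapping groups. Ppargc1a, a coactivator of mitochondrial biogenesis, was at -0.50 (adjusted p = 0.452), and its relative Ppargc1b was at -0.22 (adjusted p = 0.557). Enzymes that pass electrons to ubiquinone without complex I, namely Gpd2, Dhodh, Etfdh and Sqor, had 1 of 4 positive with a median of -0.03. Gpd2, the mitochondrial glycerol phosphate dehydrogenase, was at -0.18 (adjusted p = 0.467), Sqor at -0.03 and Etfdh at 0.03.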
